A study of Mus musculus with 6 samples.

Results

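The genes described here are 10 that build, organise or crosslink elastic fibres: Eln, Fbn1, Emilin1, Fbln1, Fbln2, Fbln5, Lox, Loxl1, Mfap5 and Ltbp4. They were listed for this role. The rule itself uses no difference between genotypes, but the genes were chosen with earlier results of these data known. On the array used, 19 probes carried the names of 9 of these genes and no probe was named for Fbn1. The 1 probe of Fbln5 was not detected in any pool, so 8 of the 10 genes, with 13 probes, could be tested, among 9920 genes and 16898 probes in all.

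Mouse kidneys were taken whole at E18.5 and read on Illumina MouseWG-6 arrays from biotin-labelled cRNA. Each of 3 litters gave 1 pool of FoxD1GC;Dicerfl/fl kidneys (here also called mutant) and 1 pool of control kidneys, with kidneys of 2 embryos of the same genotype in each pool. In FoxD1GC;Dicerfl/fl embryos a fusion of eGFP and Cre sits at the endogenous FoxD1 locus and removes a floxed part of Dicer, the enzyme that cuts miRNA precursors, from FoxD1-expressing renal stroma and the cells that arise from it. Control embryos were Cre-negative littermates. The FoxD1GC line had a 129-Elite background and the floxed Dicer line a C57BL/6J background, and the study notes that FoxD1GC is active in podocytes too. The FoxD1 allele and the loss of Dicer therefore cannot be told apart in this comparison, and cells in which FoxD1 was never active keep Dicer in both groups. Because the whole organ was read, fewer cells of a type and less RNA per cell cannot be told apart either.

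Elastic fibres give arteries, the lung and other stretching tissues their recoil. Cells secrete tropoelastin, the product of Eln, which collects on a scaffold of microfibrils made largely of fibrillin, the product of Fbn1. Fibulins, emilin and latent TGF-beta binding proteins bring the parts together, and lysyl oxidases link tropoelastin into an insoluble fibre. In the kidney, elastic fibres lie in arterial walls, where smooth muscle cells make them, and microfibrils also surround tubules and glomeruli. The miR-29 family is known to target messenger RNAs of matrix proteins, Eln and Fbn1 included. Its mature sequences are shown because they would not be made in cells without Dicer. They are given 5′ to 3′ from RefSeq, with the seed (bases 2 to 8) in capitals. In build GRCm38.p6, miR-29a-3p lies at chr6:31062673-31062694 on the minus strand and miR-29c-3p at chr1:195037600-195037621 on the plus strand. miR-29b-3p is encoded beside each of them, at chr6:31063025-31063047 (minus) and chr1:195037091-195037113 (plus).

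mmu-miR-29a-3p: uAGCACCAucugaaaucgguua
mmu-miR-29b-3p: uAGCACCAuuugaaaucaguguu
mmu-miR-29c-3p: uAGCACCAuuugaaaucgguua

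The 3 miRNAs share 1 seed and differ only downstream of it. Their levels were not measured by this array.

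Of the 8 genes tested, Mfap5, Ltbp4 and Lox fell in FoxD1GC;Dicerfl/fl kidneys and 5 were not called. A gene was called when its brightest tested probe had an adjusted p under 0.05 in limma with Benjamini-Hochberg adjustment over all tested probes and with litter as a block. Over all tested genes, 3.16% were called lower, 2.41% higher and 5.56% either way. None of the 8 genes was called higher, against 2 when the authors' processed values were used, where 2.97% of all genes were called higher. An unadjusted p under 0.05 was reached by 5 of the 8 genes (the 3 called ones, Emilin1 and Loxl1), against 20.2% of all genes. The median change of the 8 genes was -0.49 on the log2 scale, and the median over all tested genes was 0.01. Without litter 2 none of the 8 was called, and over all genes 44 were, or 0.444%. In the single litters the median of the 8 was 0.06, -0.47 and -0.75 in litters 1, 2 and 3.

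**Figure D1:**
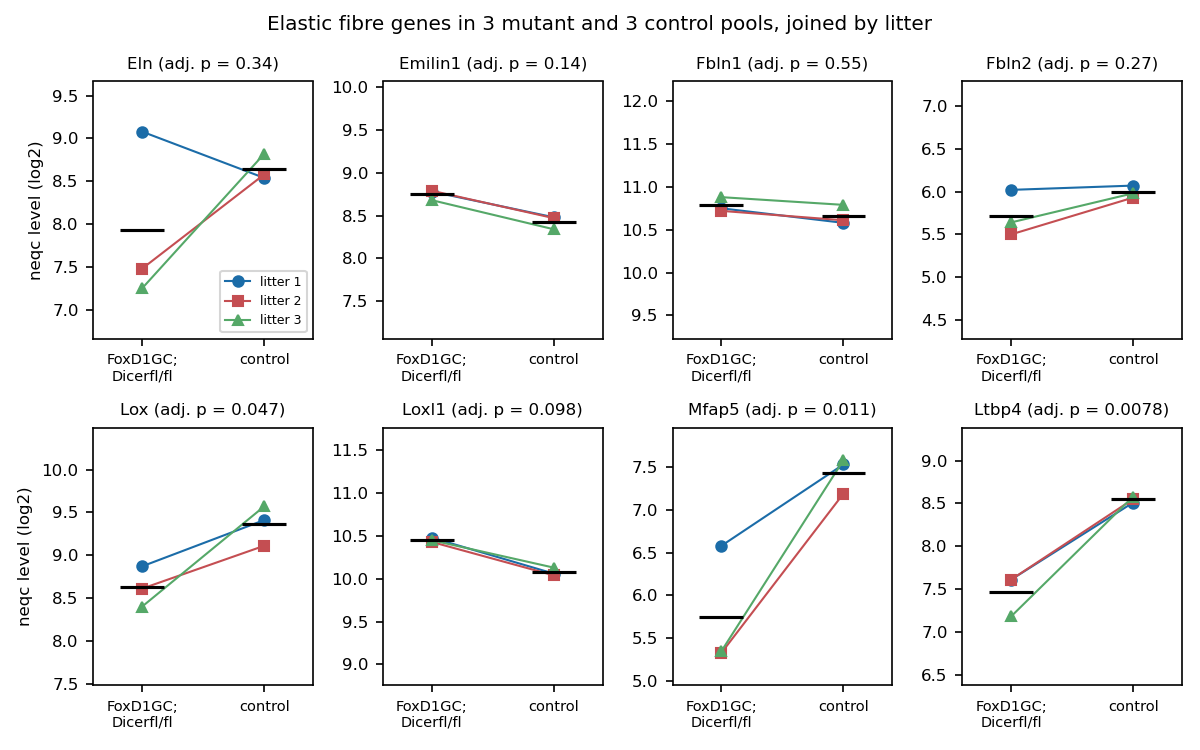
Normalized level (neqc, log2 units) of the brightest tested probe of 8 elastic fibre genes in FoxD1GC;Dicerfl/fl pools (left in each panel) and control pools (right). Points are pools, lines join the pools of a litter, black bars are group means, and every panel spans the same range of log2 units. Mfap5, Ltbp4 and Lox lay lower in all 3 mutant pools than in any control pool, and Eln was lower in the mutant pools of litters 2 and 3 but highest of all in the mutant pool of litter 1.

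Eln encodes tropoelastin, the bulk of the mature fibre. Its level was 9.08, 7.48 and 7.25 log2 units in the mutant pools of litters 1, 2 and 3, against 8.54, 8.58 and 8.82 in the control pools. The mutant pool of litter 1 was the highest of all 6 and the other mutant pools were the lowest, so the groups overlapped. The change was -0.71 ± 0.36 (SE, limma adjusted p = 0.339), and Eln was not called. In single litters the difference was 0.54, -1.10 and -1.57 in litters 1, 2 and 3. The SD of these differences was 1.11, a spread reached by 14 of 9920 genes, or 0.141%, Eln included. A difference in litter 1 of opposite sign to litters 2 and 3 is more common, and was seen in 19.3% of genes. Without litter 1 the change of Eln was -1.34 ± 0.16 (limma adjusted p = 0.00832), and without litter 3 it was -0.28 ± 0.32 (limma adjusted p = 0.687). With median scaling in place of quantile normalization the change was about the same, -0.70, and Eln was called (limma adjusted p = 0.00367). In that fit limma gave all tested probes the same SE of 0.18, so the spread of Eln between litters did not enter its p. The second Eln probe was not detected in any pool.

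Mfap5 encodes a small glycoprotein of microfibrils that binds fibrillin. It stood at 6.58, 5.33 and 5.35 log2 units in the mutant pools of the 3 litters in turn, against 7.53, 7.19 and 7.58 in the control pools. Every mutant pool was below every control pool, and the mutant pool of litter 1 was the highest of its group, as for Eln. In the mutant pools of litters 2 and 3 the Mfap5 probe was detected but near background, with uncorrected intensities of 128.5 and 116.8. The undetected Fbln5 probe read 98.1 and 90.1 there. Mfap5 fell 3.22-fold in mutant kidneys, a change of -1.69 ± 0.23 (SE, limma adjusted p = 0.0112). A change at least as low was measured in 30 of all tested genes, or 0.302%, Mfap5 included. The difference was -0.95, -1.87 and -2.24 in litters 1, 2 and 3, so its size depended on the litter while its direction did not. Without litter 2 the change was -1.60 ± 0.31 and Mfap5 was not called (limma adjusted p = 0.141), and with no filter on dim probes the adjusted p in limma was 0.0798. The size of the change depended on the scale: it was -1.21 with an offset of 50, -0.88 with no background correction and -0.68 on the authors' processed values, with Mfap5 called lower under each of these.

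Ltbp4 encodes a latent TGF-beta binding protein that carries TGF-beta into the matrix and helps to deposit fibulin-5 and elastin on microfibrils. Its brightest probe read 7.61, 7.61 and 7.18 log2 units in the mutant pools of litters 1, 2 and 3 and 8.51, 8.55 and 8.58 in the control pools. A second probe read 7.08, 6.78 and 6.85 in the mutant pools and 8.01, 7.93 and 7.79 in the control pools. On both probes all mutant pools were below all control pools, and litter 1 did not stand apart from litter 2 on the brightest one. The change was -1.08 ± 0.13 (SE, limma adjusted p = 0.00782), a 2.11-fold fall, on the first probe. On the second Ltbp4 fell 2.01-fold (limma adjusted p = 0.00477). A change at least as low as that of the first probe was measured in 96 of 9920 genes, or 0.968%. Without litter 2 neither probe was called, and the first then gave -1.15 ± 0.18 (limma adjusted p = 0.0919). On the authors' processed values its change was -0.72. The last Ltbp4 probe was not detected in any pool.

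Of the 3 start windows of Ltbp4, which was lower on 2 probes, those shown are the one farthest upstream and the one with the most GC boxes. That of Emilin1 is shown as a window with no GC box. Each holds 250 bases before and 50 after a start site of RefSeq, in build GRCm38.p6, in the direction of the gene. Capitals mark the GC box GGGCGG on either strand, which is found in 35.7% of 32851 windows of 300 bases.

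Ltbp4, chr7:27337563-27337862, minus strand: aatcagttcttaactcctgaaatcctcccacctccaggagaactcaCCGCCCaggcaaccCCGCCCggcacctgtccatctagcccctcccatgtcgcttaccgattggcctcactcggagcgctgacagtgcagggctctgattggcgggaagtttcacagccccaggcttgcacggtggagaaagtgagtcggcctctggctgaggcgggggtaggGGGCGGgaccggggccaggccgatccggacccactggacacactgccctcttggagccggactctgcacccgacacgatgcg
Ltbp4, chr7:27333614-27333913, minus strand: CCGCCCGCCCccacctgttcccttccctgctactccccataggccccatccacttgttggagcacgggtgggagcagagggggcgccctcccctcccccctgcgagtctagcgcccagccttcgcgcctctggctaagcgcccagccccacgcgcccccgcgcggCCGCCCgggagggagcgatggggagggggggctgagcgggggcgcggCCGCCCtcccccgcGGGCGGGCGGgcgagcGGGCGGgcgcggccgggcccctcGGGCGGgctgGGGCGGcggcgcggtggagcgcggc
Emilin1, chr5:30913536-30913835, plus strand: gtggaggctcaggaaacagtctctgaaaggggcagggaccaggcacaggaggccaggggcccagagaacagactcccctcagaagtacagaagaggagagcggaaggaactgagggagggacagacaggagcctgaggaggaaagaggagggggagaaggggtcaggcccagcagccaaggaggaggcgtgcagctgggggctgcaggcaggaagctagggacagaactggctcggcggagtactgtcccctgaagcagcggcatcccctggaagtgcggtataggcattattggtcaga

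The GC box occurred 3 times in the upstream Ltbp4 window, 9 times (overlapping matches counted) in the second one shown and 7 times in the window not shown, which overlaps the second. It occurred 0 times in that of Emilin1. Windows were matched for 6 of the 10 genes, 10 windows in all, and 7 of the 10 windows held a GC box, windows of Fbln1 and Fbln2 among them. None of the 10 held the TATA box TATAAA, which is in 13.6% of all windows, or the AP-1 motif TGANTCA, which is in 7.81%. A CArG box, the motif of serum response factor, was in none of the 10 and in 1.63% of all windows. Both strands were searched. These matches describe the letters of the windows only.

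Lox encodes lysyl oxidase, which oxidises lysines of tropoelastin and collagen so that crosslinks can form. Its level was 8.87, 8.61 and 8.40 log2 units in the mutant pools of litters 1, 2 and 3, against 9.41, 9.11 and 9.57 in the control pools. The groups did not overlap, although the highest mutant pool and the lowest control pool lay close together. Lox fell 1.67-fold in mutant kidneys, a change of -0.74 ± 0.15 (SE, limma adjusted p = 0.0473). This call was near the threshold, and it was lost whichever litter was left out (limma adjusted p = 0.0678, 0.183 and 0.0679 without litters 1, 2 and 3) and with no filter on dim probes (limma adjusted p = 0.146). The difference was -0.54, -0.51 and -1.17 in litters 1, 2 and 3.

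Loxl1 encodes a lysyl oxidase relative that is tethered to sites of elastin deposition by fibulin-5. It stood at 10.48, 10.43 and 10.45 log2 units in the mutant pools of the 3 litters in turn, against 10.06, 10.04 and 10.13 in the control pools. Every mutant pool was above every control pool, with little spread in either group. The change was 0.38 ± 0.10 (SE) and missed the threshold (limma adjusted p = 0.0984). It passed in 4 of 12 alternatives, and under these 4 the change was 0.35 to 0.38. A second Loxl1 probe was not detected in any pool. Lox and Loxl1, both lysyl oxidases, had changes of opposite sign in each of the 3 litters, and the difference between them was not tested.

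Emilin1 encodes a glycoprotein at the interface of elastin and microfibrils. It read 8.78, 8.79 and 8.68 log2 units in the mutant pools of litters 1, 2 and 3, against 8.48, 8.47 and 8.34 in the control pools. Mutant pools were again all above control pools, and the litter differences of 0.30, 0.32 and 0.34 were nearly the same. The change of 0.32 ± 0.10 (SE) was not called (limma adjusted p = 0.142), and it was called in 2 of 12 alternatives. Over all genes, 12.1% had every mutant pool below every control pool and 13.8% had every mutant pool above. Of the 8 genes, 3 were in the first class and 2 in the second.

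**Figure D2:**
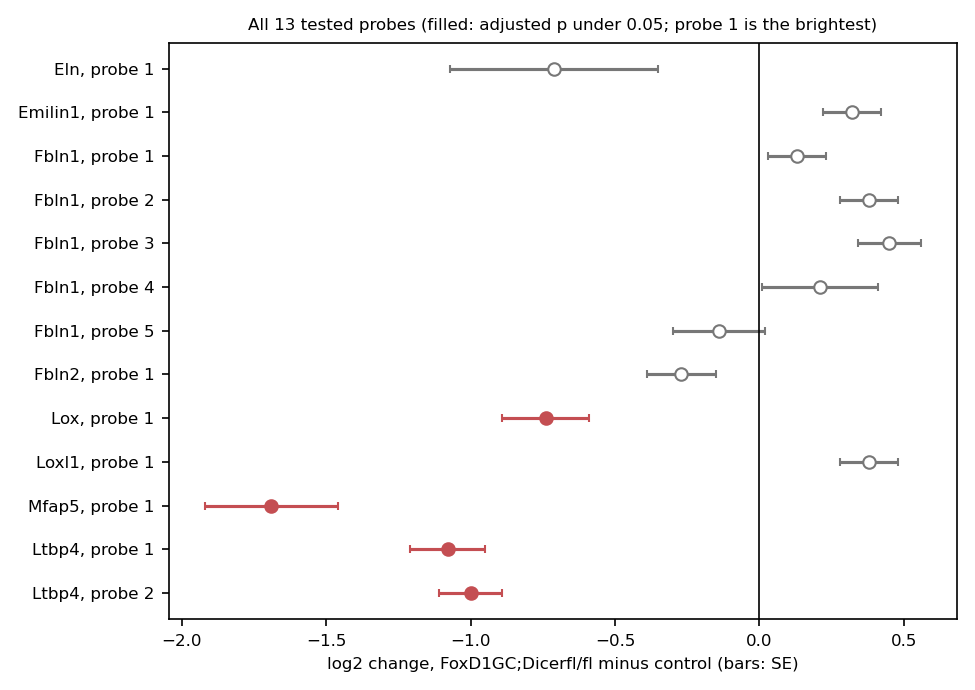
Log2 change (FoxD1GC;Dicerfl/fl minus control, x axis) of the 13 tested probes of 8 elastic fibre genes, with bars for the SE from limma (n = 3 pools per group). Filled points passed an adjusted p of 0.05. Both Ltbp4 probes, Lox and Mfap5 are filled, and the 5 Fbln1 probes run from -0.14 to 0.45.

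The fibulins are calcium-binding glycoproteins that bridge elastin, microfibrils and basement membranes. Fbln1 was read by 5 tested probes. The brightest gave 10.75, 10.72 and 10.88 log2 units in the mutant pools of litters 1, 2 and 3, against 10.58, 10.61 and 10.79 in the control pools. The groups overlapped on this probe, and the change was 0.13 ± 0.10 (SE, limma adjusted p = 0.551). The next probe stood at 10.43, 10.38 and 10.27 in the mutant pools and 9.99, 9.99 and 9.96 in the control pools. Another stood at 10.28, 10.18 and 10.07 in the mutant pools and 9.67, 9.76 and 9.76 in the control pools. On these probes all mutant pools were above all control pools, with changes of 0.38 ± 0.10 and 0.45 ± 0.11 (limma adjusted p = 0.100 and 0.0794). The 2 dimmest gave 0.21 ± 0.20 and -0.14 ± 0.16 (limma adjusted p = 0.634 and 0.692), and their groups overlapped. None of the 5 probes was called. The 2 probes with changes of 0.38 and 0.45 were each called higher in 4 of 11 alternatives, while the brightest was called in 0 of 11. The 2 dimmest turned sign among the alternatives, from -0.12 to 0.40 and from -0.30 to 0.09.

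Fbln2 read 6.02, 5.50 and 5.64 log2 units in the mutant pools of litters 1, 2 and 3 and 6.07, 5.93 and 5.98 in the control pools. The mutant pools of litters 2 and 3 were lowest, the one of litter 1 lay among the control pools, and the change of -0.27 ± 0.12 was not called (SE, limma adjusted p = 0.265). Of its other 2 probes, 1 was detected only in the mutant pool of litter 2 and the other in no pool. The Fbln5 probe lay between 4.24 and 4.29 in the mutant pools and between 4.25 and 4.44 in the control pools. These values are not well above background, so they set only an upper bound on this transcript.

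The spread between litters was uneven across these genes. On their brightest probes, the litter differences of Emilin1, Fbln1 and Loxl1 had an SD of 0.02 to 0.05, against a median of 0.18 over all tested genes. The other tested Fbln1 probes had an SD of 0.07, 0.15, 0.57 and 0.41, from brighter to dimmer. The SD of Mfap5 was 0.66, and 1.42% of genes reached this. On the brightest probes of Eln, Fbln2, Lox and Mfap5 the mutant pool of litter 1 was the highest of the mutant pools. For Loxl1 it was so by a small margin (10.48, against 10.43 and 10.45), and Loxl1 was above control in every litter. The second Ltbp4 probe (7.08, against 6.78 and 6.85) had this order too. So did some Fbln1 probes, such as the next brightest (10.43, against 10.38 and 10.27), but not the brightest or the dimmest. The share of all genes with this order was not counted.

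**Figure D3:**
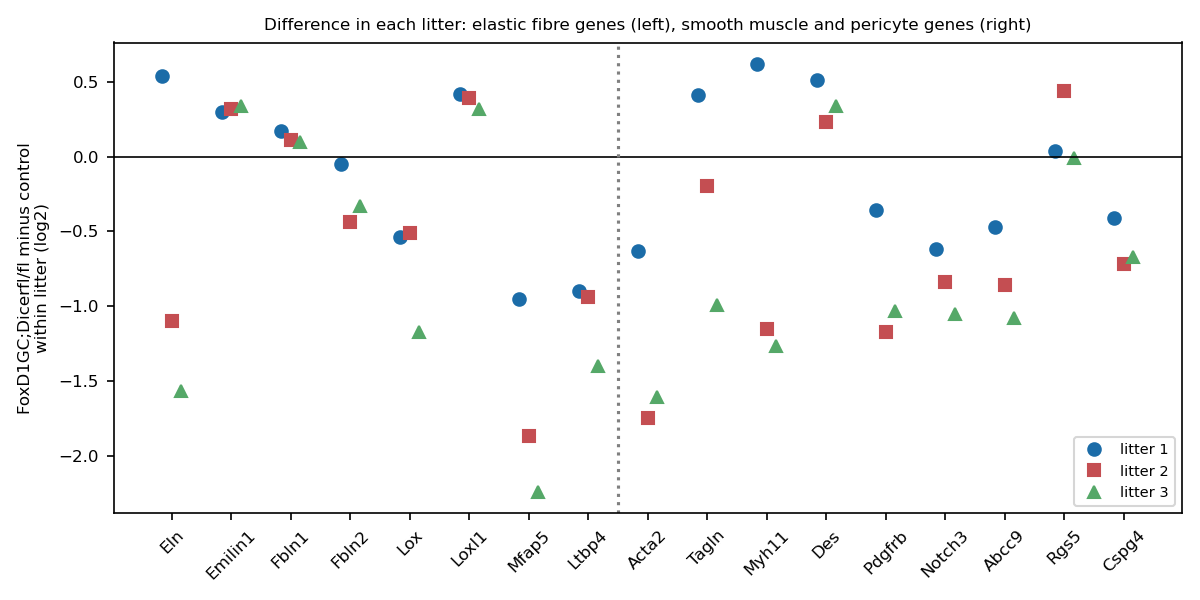
Difference between the FoxD1GC;Dicerfl/fl and the control pool of the same litter (log2 units, y axis) for 8 elastic fibre genes, left of the dotted line, and the 9 tested smooth muscle and pericyte genes, right of it. Circles, squares and triangles are litters 1, 2 and 3. Eln, Tagln and Myh11 were above 0 in litter 1 and below 0 in litters 2 and 3.

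Markers of some cell types were called between the groups, and those of others were not. Over all tested genes, 3.16% were called lower and 2.41% higher. Of 7 endothelial markers tested, 0 were called, with a median change of -0.09. At these shares, 0 of 7 does not show that the markers were unchanged. An unadjusted p under 0.05 was reached by 1 of the 7, against 20.2% of all genes. Of 9 smooth muscle and pericyte genes tested, 5 were called lower (Acta2, Pdgfrb, Notch3, Abcc9 and Cspg4), 0 were called higher and 4 were not called, with a median change of -0.60. Des and Rgs5, among those not called, had changes of 0.36 ± 0.11 and 0.16 ± 0.13. The medians of the 9 genes in litters 1, 2 and 3 were -0.36, -0.84 and -1.03. Their level summed on the linear scale, to which Acta2 gave the most, was 6992, 3321 and 3438 in the mutant pools of litters 1, 2 and 3, against 10244, 9642 and 9363 in the control pools. Acta2, the smooth muscle actin, stood at 12.57, 11.36 and 11.43 log2 units in the mutant pools, against 13.20, 13.10 and 13.05 in the control pools. As for Eln, the mutant pool of litter 1 was the highest of the mutant pools. Of the defining markers, Cnn1 was detected in no pool and Myh11 in 1 of 3 mutant pools and 3 of 3 control pools. Of 7 kidney epithelial markers tested, 3 were called lower and 0 higher, with a median of -0.72 and medians of -0.21, -0.83 and -1.20 in litters 1, 2 and 3. Lrp2 and Cubn, endocytic receptors of the proximal tubule, fell 2.77-fold and 2.37-fold, and Aqp2, the water channel of the collecting duct, fell 3.07-fold. Of those not called, Six2, a nephron progenitor marker, had a change of 0.56 ± 0.12 (limma adjusted p = 0.0562). All its mutant pools were above all control pools. On their brightest probes Umod changed by -0.72 ± 0.20, Slc12a1 by -0.14 ± 0.12 and Nphs1 by -0.15 ± 0.11. The summed level of this list came mostly from Lrp2 and Slc12a1. In the mutant pools of litters 1, 2 and 3 it was 3285, 4379 and 3864. In the control pools it was 5532, 7036 and 7621. The mutant pool of litter 1 was the lowest in this sum and the highest in the smooth muscle sum. The falls of Lrp2 and Aqp2 were largest in litter 1 (differences of -1.55 and -1.95), while that of Cubn was smallest there (-0.99). The part of smooth muscle or epithelial cells in the change of Eln, Mfap5, Lox and Ltbp4 was not tested.

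The pattern of Eln over the 6 pools was set against each of 9912 other tested genes, each centred on its own mean, by the root mean square difference in log2 units. The smallest difference, 0.10, was that of Myh11, the heavy chain of smooth muscle myosin. Its level was 6.51, 4.93 and 4.81 log2 units in the mutant pools of litters 1, 2 and 3, against 5.89, 6.07 and 6.08 in the control pools. High in the mutant pool of litter 1 and low in the others, it had a change of -0.60 ± 0.35 (limma adjusted p = 0.397). Next came Prelp, a leucine-rich matrix protein, at 0.19. Myh11 and Prelp were not detected in the mutant pools of litters 2 and 3, so their values there are only upper bounds and their distances and order are not exact. Of the genes detected in all 6 pools, Cnn2, a calponin that binds actin, lay nearest, at 0.27. Dlk1, a membrane protein of the Notch ligand family, followed at 0.28 and Lum, a proteoglycan that organises collagen fibrils, at 0.30. None of the 5 was called, which comes largely with the choice, as they were picked for likeness to Eln, itself not called.

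Among the elastic fibre genes, Lox lay nearest to Eln, at 0.46, followed by Fbln2 at 0.50, Mfap5 at 0.53 and Ltbp4 at 0.54. Among the 9920 tested genes these had ranks 69, 138, 268 and 331 in nearness to Eln. Fbln1, Emilin1 and Loxl1 lay at 0.73, 0.77 and 0.79, with ranks 6431, 7905 and 8258. These distances rest on 6 pools of 3 litters and are descriptions.

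**Figure D4:**
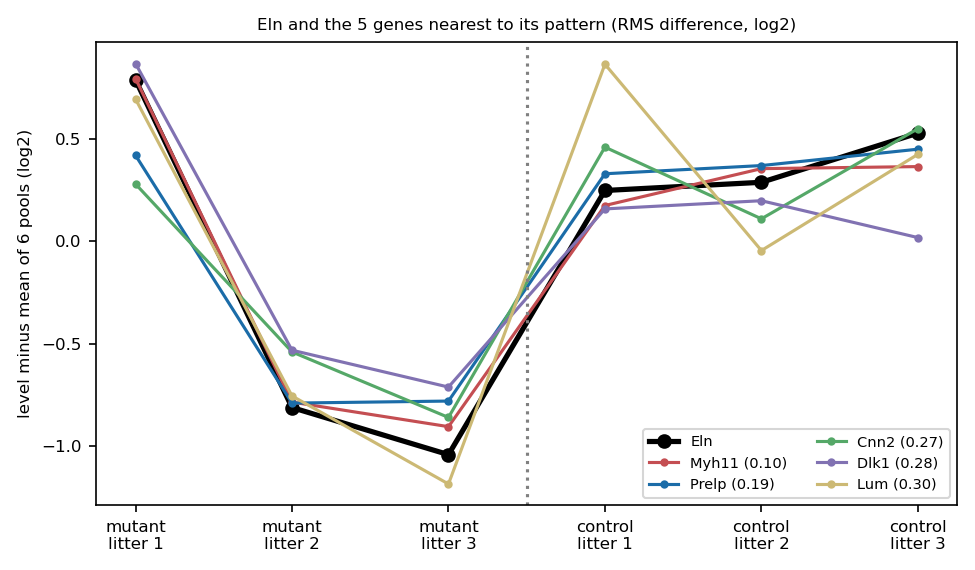
Level minus the mean of the 6 pools (log2 units, y axis) for Eln (thick line) and the 5 tested genes with the smallest root mean square difference from it, given in brackets. FoxD1GC;Dicerfl/fl pools are left of the dotted line and control pools right. All 6 genes were higher in the mutant pool of litter 1 than in those of litters 2 and 3, where Myh11 and Prelp were not detected. The 5 genes were picked for likeness to Eln, so this shared order comes with the choice.

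In 6 related lists, chosen by role with earlier results of these data known, 8 genes were called. Without litter 2, 0 were called, when 0.444% of all genes were. In the main fit 3.16% of all tested genes were called lower and 2.41% higher. Of 19 further microfibril and elastic fibre genes, 8 were tested, 2 were called lower and 0 higher, with a median of -0.09. Hmcn1, which encodes the large fibulin relative hemicentin-1, fell by 1.02 ± 0.15 on the log2 scale (limma adjusted p = 0.0142). Its level was 5.90, 5.97 and 5.68 in the mutant pools of litters 1, 2 and 3, against 6.65, 6.87 and 7.10 in the control pools. Ltbp3, a relative of Ltbp4, stood at 7.95, 7.95 and 7.84 in the mutant pools, against 8.64, 8.57 and 8.55 in the control pools. Its change was -0.67 ± 0.10 (limma adjusted p = 0.016), with no overlap of the groups. Ltbp1, another relative, had 7.19, 6.96 and 7.19 in the mutant pools and 7.36, 7.12 and 6.97 in the control pools and was not called. Mfap2, which encodes a microfibril glycoprotein like the product of Mfap5, read 11.23, 10.90 and 11.13 in the mutant pools against 11.10, 10.83 and 10.78 in the control pools on its brightest probe and was not called. Ltbp2 and 7 other genes of the list had no tested probe, and Fbn2, Efemp2 and Adamtsl5 had no named probe.

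None of the 9 tested genes of other matrix crosslinking enzymes and their helpers was called, and their median was 0.10. An unadjusted p under 0.05 was reached by 1 of them. Over all genes, 5.56% were called and 20.2% had such a p. Tgm2, a transglutaminase that links fibrillin and other proteins, stood at 10.26, 10.26 and 10.17 in the mutant pools, against 9.85, 9.79 and 9.86 in the control pools.

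Of the 8 tested proteases that can cut elastin and their inhibitors, 1 was called higher and 0 lower, with a median of 0.20. An unadjusted p under 0.05 was reached by 5 of the 8. Over all genes, 2.41% were called higher, 3.16% were called lower and 20.2% had such a p. The median mixes proteases and inhibitors, which did not all change in 1 direction. The protease Mmp2 had a change of 0.39 ± 0.10, with all mutant pools above all control pools. The inhibitor Timp3 had -0.44 ± 0.12, with all mutant pools below on its brightest probe. Neither was called (limma adjusted p = 0.0912 and 0.0965). Ctsl, the lysosomal protease cathepsin L, rose 1.54-fold in mutant kidneys (0.62 ± 0.11, limma adjusted p = 0.0303). Macrophages are a source of such proteases, and 7 of 7 tested macrophage markers were called higher, with a median of 1.26. Their summed level was 1504 to 1550 in the mutant pools and 510 to 622 in the control pools, the markers Csf1r and Adgre1 were detected in every pool, and their part in the change of Ctsl was not tested. None of 9 TGF-beta ligands and receptors was called, 3 had an unadjusted p under 0.05, and their median was 0.09.

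Of 6 tested receptors of elastic fibre proteins, 2 were called higher, against 2.41% of all genes. Itgav, the integrin alpha V that binds fibrillin and other matrix proteins, stood at 6.54, 6.45 and 6.41 in the mutant pools of litters 1, 2 and 3, against 5.45, 5.79 and 5.58 in the control pools. Its change was 0.86 ± 0.12 (limma adjusted p = 0.0123) on the brightest of its 3 tested probes, while the other 2 were not called. Itgb5, which pairs with it, read 10.49, 10.16 and 10.19 in the mutant pools and 9.62, 9.61 and 9.77 in the control pools, a change of 0.61 ± 0.12 (limma adjusted p = 0.0421). On these probes mutant pools were all above control pools, the other direction from Mfap5 and Ltbp4.

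Of 11 tested matrix genes outside the 10 that are known targets of miR-29, 3 were called lower and 0 higher. Their median was -0.28. Over all genes, 3.16% were called lower and 2.41% higher. Col15a1, a collagen of basement membrane zones, stood at 7.14, 7.22 and 7.15 log2 units in the mutant pools of litters 1, 2 and 3, against 8.24, 8.39 and 8.59 in the control pools. It fell 2.35-fold (limma adjusted p = 0.0032). Col1a1 and Col4a1, the first chains of fibrillar and basement membrane collagen, changed by -0.83 ± 0.14 and -0.62 ± 0.12 (limma adjusted p = 0.0242 and 0.032). Eln, the miR-29 target measured among the 10 genes, was not called. Of the 7 tested stromal markers, 3 were called lower (Pdgfra, Snai2 and Sfrp1). Foxd1 itself had a change of 0.04 ± 0.22 (limma adjusted p = 0.955), with differences of -0.61, 0.10 and 0.62 in litters 1, 2 and 3. The summed level of the 7 was 13172 to 14748 in the mutant pools and 17208 to 19883 in the control pools, and most of it came from Cdkn1c, which was not called (limma adjusted p = 0.134). The part of stromal cell number in these changes was not tested.

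**Figure D5:**
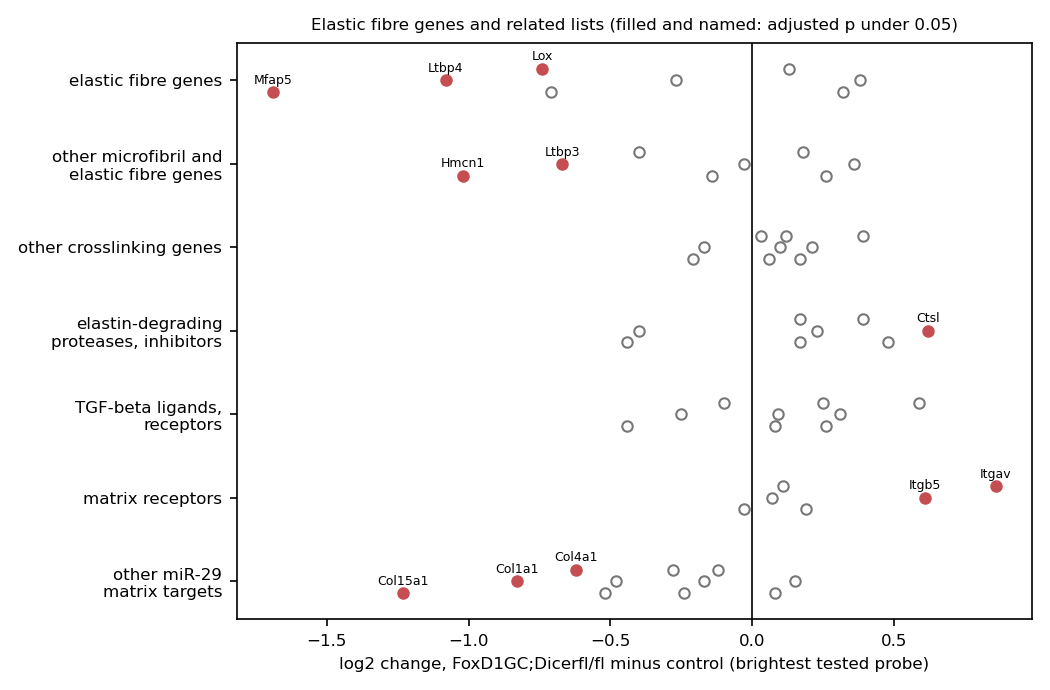
Log2 change (FoxD1GC;Dicerfl/fl minus control, x axis) of the brightest tested probe of each gene in the elastic fibre genes and 6 related lists. Filled, named points passed an adjusted p of 0.05 in limma. Called genes of the microfibril and miR-29 lists lie below 0 and those of the protease and receptor lists above 0.

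The arrays themselves were alike. The median intensity was 100.3 to 107.6 and 35.7% to 37.7% of probes were detected in a pool. The brighter Dicer1 probe gave -0.28 ± 0.11 (limma adjusted p = 0.241) and the dimmer -0.63 ± 0.13 (limma adjusted p = 0.0452). Whether either lies in the deleted part is not known here, so they do not check the deletion. Of the kidney epithelial markers, Lrp2 and Slc12a1 were detected in every pool, and no adrenal marker could be tested. Eif2s3y, a Y-linked gene, read 8.21, 4.29 and 4.28 in the mutant pools of litters 1, 2 and 3 and 8.50, 8.43 and 4.39 in the control pools. In litter 2 it was thus near background in the mutant pool and high in the control pool. Whether the sex of the embryos has a part in the litter 2 differences of Eln or Mfap5 was not tested.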

How the data were processed

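The deposited table holds, per the file headers, for each array a linear probe intensity with its detection p-value. A second table holds the authors' processed log2 values, made with lumi per the study's methods, and served as an alternative. Of 45281 rows, 12 were damaged and left out. Of the 45269 probes kept, 34874 had 1 gene symbol, 18 several and 10377 none, and 34796 were found in the RefSeq gene table. Intensities were background-corrected from the detection p-values, then quantile normalized and logged (log2) by neqc with an offset of 16 in limma 3.58.1 under R 4.3.3. Probes with a detection p under 0.01 on at least 3 of 6 arrays were tested with lmFit and eBayes, with litter as a fixed block. The offset shrinks changes of dim probes. Precision is limited by the number of arrays (median SE 0.12). Slide and scan were not given in the sources used here.

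The labels give the litter of each pool, and pools were paired by these labels. Deviations from the group mean had correlations of 0.19, 0.18 and 0.14 between same-litter pools over 16898 probes. Other pairs had -0.13 to -0.01. Centring on the group mean makes these values offset each other, so the negative ones are no separate check of the pairing.

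The genes and lists were chosen with earlier results of these data known. Named are all 10 genes, in the other lists the called genes and at most 3 more by level, and the 5 genes nearest to Eln. The arrays of E15.5 kidneys were not used here. The fit was checked on simulated data, and 12 alternatives were run.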

Additional observations from a re-analysis of the deposited data

Results flagged for a closer look

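A Fbln2 probe that was too dim to be tested was detected in 1 pool, the FoxD1GC;Dicerfl/fl pool of litter 2, at 5.20 log2 units. It stood at 4.57 and 4.82 in the other two mutant pools, against 4.50, 4.52 and 4.58 in the control pools, and was detected in none of these. It was noticed in a search of the untested probes of these genes for detection in a mutant pool and in no control pool. Its place above the control pools was thus part of the search. The brightest Fbln2 probe had its lowest value, 5.50, in the same mutant pool of litter 2.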

How the results depend on the processing

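On their brightest probes, no change of the 8 genes turned its sign in 12 alternatives, while 2 dimmer Fbln1 probes did. With no filter on dim probes, 1 of the 8 genes was called lower, Lox (-0.74) and Mfap5 (-1.69) were not called (limma adjusted p = 0.146 and 0.0798), and 266 genes were called in all (155 lower and 111 higher), 3 of them in the related lists, where the main fit calls 8. The authors' processed values called 2 of the 8 higher (Emilin1 at 0.24 and Loxl1 at 0.37) and 14 genes of the related lists. An offset of 50 called Loxl1 higher (0.37, 1 of the 8) and 15 genes of the related lists. With no background correction 2 were called higher (Emilin1 at 0.26 and Loxl1 at 0.35), with 15 in the related lists. An intensity trend in eBayes called Loxl1 higher (0.38, 1 of the 8), 865 genes in all (493 lower and 372 higher) and 15 in the related lists. Median scaling called Eln (-0.70), in a fit that gave all probes 1 common SE. Over all 12 the change of Mfap5 reached -0.68 and that of Ltbp4 -0.72, both on the authors' values.

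Leaving out 1 litter at a time gave 0 to 3 of the 8 genes called lower, 44 to 537 genes called in all (26 to 295 lower and 18 to 242 higher, the lowest without litter 2) and 0 to 8 in the related lists. The change of Eln ran from -1.34 to -0.28, of Lox from -0.85 to -0.52, of Mfap5 from -2.05 to -1.41 and of Ltbp4 from -1.17 to -0.92. Without the litter as a replicate block 528 genes were called (281 lower and 247 higher), and no call among the 8 genes changed. Detection on all 6 arrays and the mean of all probes changed no call among the 8 either. The cause of these shifts was not tested. With 3 pools a group, smaller changes cannot be resolved. The 1 probe of Fbln5 and the untested probes of Fbln2, Eln, Loxl1 and Ltbp4 were at or near background. The tested probes of Fbln2 and Eln were detected in all 6 pools.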
